A study of Mus musculus with 4 samples.

Results

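The loss of MIST1 was examined in mucous neck cells of the mouse stomach by setting 1 array of MIST1-null neck cells against 1 array of wild-type neck cells. MIST1 is the protein of the gene Bhlha15. The members described here are the 10966 of 19938 measured genes whose higher value in the pair reached an intensity of 43.7, the median of all probe sets with exactly 1 gene (a log2 value of 5.45). Such genes are called detectable below, a cutoff on intensity alone, since no background estimate was used. The series holds 4 Affymetrix Mouse Gene ST arrays, 1 each for neck and zymogenic (chief) cells of wild-type and MIST1 knockout mice. All 4 share the adult stomach as tissue, the C57BL/6 background, laser capture microdissection and amplification of the RNA, per the labels. Each array is 1 pool of RNA from several dissections and several mice, and no agent was given. The series design text describes how zymogenic cells were told from neck cells, by their place below the lectin GS-II signal. The sources used here do not describe how neck cells themselves were captured or how the knockout allele was built.

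Mucous neck cells lie in the middle of the gastric corpus gland and secrete a mucin-rich granule content that the lectin GS-II binds. They are widely held to turn into zymogenic cells as they move toward the gland base. MIST1 is a basic helix-loop-helix transcription factor that scales up the secretory apparatus of zymogenic cells and of other enzyme-secreting cells, and its level is low before that step.

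With 1 array per genotype there is no replicate error, no test was possible, and every difference below is a size. Differences are log2 values, MIST1-null minus wild-type neck, and 2-fold means a difference of 1 either way. Array medians lay between 37.9 and 40.9 and the top values between 13823 and 14251, so the 4 arrays span the same range. The number of arrays limits the precision. The neck mucin gene Muc6 read 2511 in wild-type and 2980 in MIST1-null neck cells against 26.7 and 20.7 in the matching zymogenic arrays, so both neck arrays carried the marker of their label.

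Bhlha15 itself read 59.7 in wild-type neck, 20.2 in MIST1-null neck, 149.8 in wild-type zymogenic and 22.0 in MIST1-null zymogenic cells. It was lower in the MIST1-null array of both cell types, and in neck cells even the wild-type value was little above the detectable level. The difference in neck cells was -1.56, and with a pseudocount of 32 it was -0.81, under 2-fold. The sources used here do not say whether the probes cover deleted sequence.

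A knocked-out allele travels with the chromosome segment around it, so the neighbours of Bhlha15 on chromosome 5 were read as a block. Of its 50 nearest detectable genes, 25 on each side in gene order, none differed by 2-fold, where 4.29% of all detectable genes did. Their median was 0.01, with 27 of 50 above 0. The closest on one side were Lmtk2 (44.1 in wild-type, 45.9 in MIST1-null neck), Ccz1 (102.1 and 86.3) and Aimp2 (46.3 and 61.3). On the other side Tecpr1 read 48.6 and 51.6, Bri3 221.7 and 149.5, and Baiap2l1 8677 and 8717. Over the whole chromosome 5, 32 of 675 detectable genes (19 higher, 13 lower) passed 2-fold, or 4.74% (95% Clopper-Pearson interval 3.26 to 6.63, counting error only). The shares of the other autosomes and the X ran from 1.68% on chromosome 15 to 6.10% on chromosome 12.

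In the neck pair 207 detectable genes were at least 2-fold higher in the MIST1-null array (1.89%) and 263 were at least 2-fold lower (2.40%). The balance between both directions was not firm, since after centring each array on its median the counts were 259 and 216. With a pseudocount of 32 added to each value, the counts were 28 and 54. Most of these genes were dim. Among the 8415 genes with both neck values at or above the median, 68 were higher and 64 lower, or 1.57%, and among the 2551 genes with only 1 such value 139 were higher and 199 lower, or 13.2%. None of the 246 genes with a mean log2 level of 10 or more passed 2-fold, and the SD of their differences was 0.20. The SD over all detectable genes was 0.48, against 0.65 in the zymogenic pair. Dim genes also sat slightly lower and bright genes slightly higher in the MIST1-null array, with a median of -0.12 in the lowest of 4 equal groups by mean level and 0.09 in the highest.

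**Figure D1:**
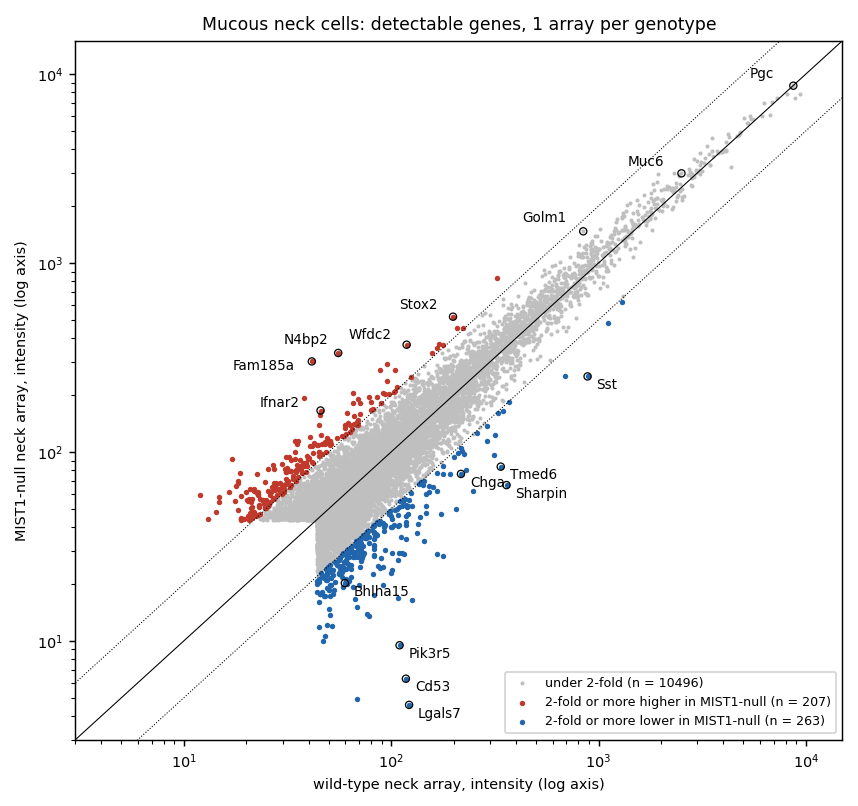
Intensity of each detectable gene in the wild-type neck array (x axis) and the MIST1-null neck array (y axis), both on log axes, with lines at equal values (solid) and at 2-fold (dotted). The 207 red and 263 blue points lie mostly at low intensity, and the bright genes Pgc and Muc6 lie close to the line of equal values.

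Among genes with both neck values at or above the detectable level, those furthest up in MIST1-null cells were N4bp2, Ifnar2, Thap6, Mfsd1 and Wfdc2. N4bp2, which encodes a BCL3-binding protein, read 55.5 in wild-type and 333.9 in MIST1-null neck cells, a difference of 2.59. Ifnar2, a chain of the type I interferon receptor, read 45.6 and 165.6 (1.86), and it was also higher in MIST1-null zymogenic cells, at 130.2 against 43.4. The zinc finger gene Thap6 read 45.1 and 155.8 (1.79). The wild-type values of Ifnar2 and Thap6, and those of Slc16a9 (44.8) and Ndel1 (45.8) below, lie just over the detectable level. Mfsd1, a transporter of the lysosome membrane, read 65.4 and 204.2 (1.64). Apart from Ifnar2, none of these was 2-fold higher in the zymogenic pair, where N4bp2 was 2-fold lower (230.2 and 83.8, -1.46). Wfdc2, a secreted whey acidic protein family member, read 118.7 and 369.3 (1.64) and was at 40.6 and 29.6 in zymogenic cells, so among the 4 arrays it was highest in MIST1-null neck cells.

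The next genes up held transporters, signalling proteins and regulators. The monocarboxylate transporter gene Slc16a9 differed by 1.63, the uridine-cytidine kinase gene Uck2 by 1.62, the transcription cofactor Lbh by 1.61, the zinc finger gene Zfp84 by 1.46 and the mitochondrial folate carrier Slc25a32 by 1.46. Below these stood the dynein regulator Ndel1 (1.43), Stox2 (1.39), the ubiquitin ligase Trim37 (1.38), the adhesion-linked Rsu1 (1.38) and the F-box gene Fbxw5 (1.37). Stox2 was the brightest of the 15, at 198.6 in wild-type and 519.4 in MIST1-null neck cells, and it was also higher in MIST1-null zymogenic cells (57.2 and 257.2). Zfp84 and Trim37 were 2-fold higher in both cell types too, by 1.71 and 1.22 in the zymogenic pair. For Uck2 a second probe set differed by 0.52, in the same direction but under 2-fold. The second probe sets of Slc16a9 and Stox2 were under the detectable level.

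The genes furthest down by the same rule were Sharpin, Tmed6, Polr2j, Psg28 and Sst. Sharpin, a subunit of the linear ubiquitin ligase, read 359.9 in wild-type and 66.7 in MIST1-null neck cells, a difference of -2.43, and both zymogenic arrays lay below that, at 50.3 and 44.3. Tmed6, a cargo adaptor of early secretory traffic, read 337.5 and 83.5 (-2.01). It was brighter in zymogenic cells and lower there too without MIST1, at 1620 and 596.1. Polr2j, a subunit of RNA polymerase II, read 248.7 and 62.4 (-1.99) and went from 680.4 to 37.5 in zymogenic cells. Psg28, of the pregnancy-specific glycoproteins, read 174.6 and 46.8 (-1.90), the second value just over the detectable level. It belongs to a family of near-identical copies, so its signal cannot be assigned with certainty.

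Others in this group include hormone, vessel and traffic genes. The hormone gene Sst read 885.3 and 250.8 (-1.82) and Chga, a protein of endocrine granules, 217.0 and 76.4 (-1.51). Fabp4, a fatty acid binding protein of fat cells and capillaries, read 690.3 and 252.7 (-1.45). Arfgap1, a Golgi regulator, differed by -1.42, the centromere gene Cenpl by -1.63, AB124611 by -1.61 (to 45.3, near the detectable level), the tyrosine kinase gene Fer by -1.52, the Wnt receptor Fzd1 by -1.51, the antiviral membrane protein Ifitm3 by -1.37 and the interferon gene Ifnk by -1.36 (to 45.9, likewise). Gabarapl2, an autophagy adaptor, is uncertain: its brighter probe set differed by -1.70 (313.3 and 96.3) and its other one by 0.30 (99.5 and 122.7).

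**Figure D2:**
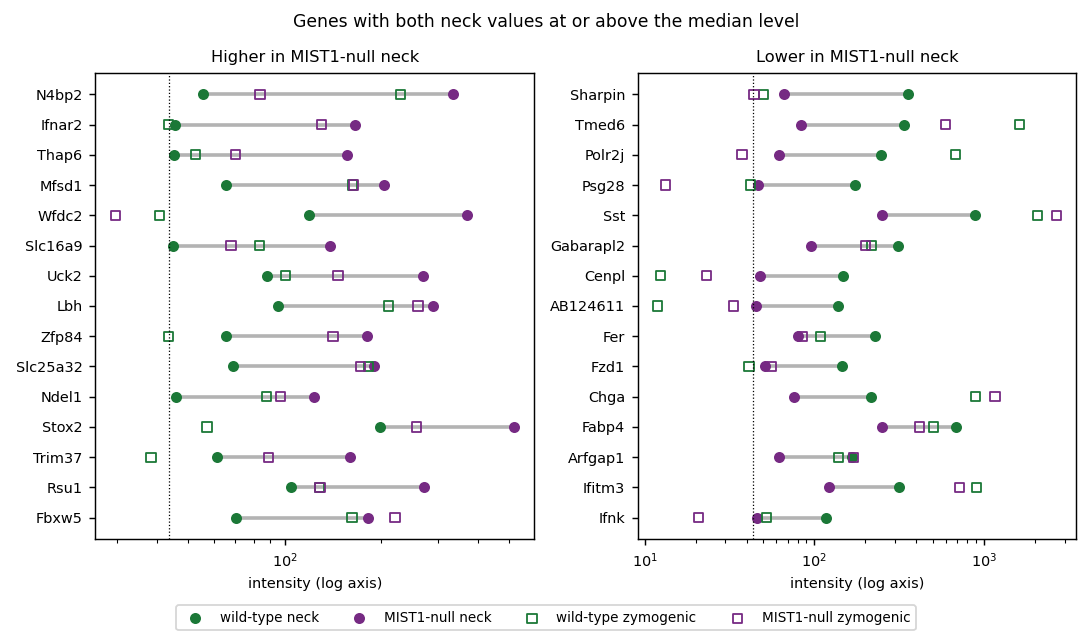
Intensity (log axis) of the 15 genes furthest up (left) and furthest down (right) in MIST1-null neck cells among those with both neck values at or above the median, which the dotted line marks. Filled circles joined by a bar are the neck arrays and open squares the zymogenic arrays, so a reader sees that Tmed6 and Polr2j were lower without MIST1 in both cell types while Sst and Chga were not.

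A further set of genes reached the detectable level in only 1 neck array. The fold of each is therefore loose, and the intensities carry the result. Higher in MIST1-null neck cells were Fam185a (41.4 in wild-type, 301.1 in MIST1-null), Myef2 (38.1 and 192.9), a repressor of myelin genes, Ttc8 (17.0 and 91.5), a subunit of the ciliary BBSome, Casp8ap2 (34.5 and 114.3), Ppifos (18.6 and 76.9), the tRNA methyltransferase gene Trmt10b (35.2 and 109.7), Adam11 (40.5 and 120.2) and Nr1h3 (12.01 and 59.02), the sterol-sensing receptor LXR alpha. Lower were Lgals7 (121.9 and 4.58), a galectin of layered epithelia, Cd53 (117.7 and 6.30), a tetraspanin of leukocytes, Tmem19 (177.0 and 28.1), Pik3r5 (109.7 and 9.47), a subunit of a phosphoinositide kinase, Fam166b (68.2 and 4.91), Fez1 (144.7 and 33.8), Pnliprp1 (115.6 and 28.7), a pancreatic lipase relative, and S100a4 (78.1 and 13.5). With the pseudocount of 32, Fam185a was at 2.18, Lgals7 at -2.07 and Cd53 at -1.97. Tmem19 and Pik3r5 were low without MIST1 in zymogenic cells as well, at 15.53 and 12.02, against 135.6 and 203.8 in wild-type zymogenic cells.

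The brightest genes of the neck arrays barely differed. The pepsinogen gene Pgc read 8698 in wild-type and 8672 in MIST1-null neck cells, and Baiap2l1 8677 and 8717. Clps, pancreatic colipase, read 9327 and 7831 (-0.25) and the secreted phospholipase gene Pla2g1b 8848 and 7476 (-0.24), the widest of the 12 brightest genes. Cd24a, an epithelial surface protein, and the iron store gene Fth1 both differed by 0.15. The others were the respiratory genes COX2 (-0.04), Cox6c (0.04) and ND3 (-0.15), the ribosomal protein genes Rpl23 (0.05) and Rps12 (-0.05), and Tpt1 (0.05). Among genes with a mean log2 level of 10 or more, the furthest up was Golm1, a Golgi membrane protein, at 843.7 and 1470 (0.80), a gene picked after its values were seen.

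Genes of neck cell mucus stood a little higher in MIST1-null neck cells, and none by 2-fold. Of 6 mucous neck markers, all detectable, 5 were above 0 and the median was 0.28, beside 50.2% above 0 and a median of 0.00 over all detectable genes. Muc6, the gland mucin, differed by 0.25. The trefoil peptide Tff2 read 3088 and 3827 (0.31), the gastrokine Gkn3 594.2 and 966.7 (0.70), A4gnt, which adds the terminal sugar that GS-II binds, 377.9 and 535.9 (0.50), and Agr2, a folding enzyme for mucins, 2979 and 3472 (0.22). The water channel Aqp5 read 65.7 and 62.5 (-0.07). Genes of the lectin's ligand stand close to the way the cells were told apart. Summed over the list, the intensity was 9616 in wild-type neck, 11845 in MIST1-null neck, 1839 in wild-type zymogenic and 688.9 in MIST1-null zymogenic cells.

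The wider set of mucin glycosyltransferases, which build sugar chains on mucins, did not lean one way by much. Of 29 detectable members 17 were above 0 and the median was 0.11. None was 2-fold higher and 1 was 2-fold lower, beside 1.89% and 2.40% of all detectable genes. That 1 was St6gal1, a sialyltransferase, at 73.5 and 31.6 (-1.22), which went the opposite way in zymogenic cells. St6gal1 was detectable only through the wild-type neck array, and with the pseudocount of 32 it stood at -0.73, under 2-fold. St6galnac1, another sialyltransferase of mucin chains, was furthest up, at 25.4 and 49.1 (0.95).

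Zymogenic cell products differed little in the neck pair. Of 6 measured members 1 was above 0 and 5 were below, with a median of -0.18, where 47.3% of all measured genes were above 0. Among those below, Pgc was near equal at 8698 and 8672. Pga5, a pepsinogen gene, read 1350 in wild-type and 1884 in MIST1-null neck cells (0.48) and was at 31.0 or less in both zymogenic arrays. Cblif, gastric intrinsic factor, read 2373 and 2120 (-0.16) and Chia1, the acidic chitinase, 1806 and 1494 (-0.27). Over the 4 detectable members, 1 above 0 and 3 below, the median was -0.08. Cym and Lipf were under the detectable level in both neck arrays, so nothing can be read from their differences. Surface mucous markers had 4 of 7 detectable members above 0 and a median of 0.02, from Gkn1 at -0.39 to Tff1 at 0.06. Parietal cell markers had 11 of 15 above 0 and a median of 0.06, from the water channel Aqp4 at -0.70 to the carbonic anhydrase Car2 at 0.44. Neither list held a 2-fold member. Oxidative phosphorylation genes, abundant in parietal cells, had a median of -0.03 over 65 members, with 30 above 0 and none at 2-fold.

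Metaplasia-associated genes, which mark the mucous change of the injured corpus, held 2 of 7 detectable members at least 2-fold higher in MIST1-null neck cells and 0 lower, beside 1.89% and 2.40% of all detectable genes. These were Wfdc2 (118.7 and 369.3) and Olfm4, a secreted glycoprotein of intestinal stem cells, which read 19.9 and 61.5 (1.63), was detectable only through the MIST1-null array, and stood at 0.85, under 2-fold, with the pseudocount of 32. Sox9, a transcription factor of progenitor cells, read 803.2 and 1237 (0.62), and Clu, the secreted chaperone clusterin, 966.0 and 1391 (0.53). Dmbt1, a mucosal scavenger protein, read 41.8 and 65.5 (0.65). The other way stood Muc4 (58.9 and 52.3) and the glutathione peroxidase gene Gpx2 (47.7 and 33.8), at -0.17 and -0.50. In all, 5 of 7 detectable members were above 0, with a median of 0.62, and 6 of the 10 measured, with a median of 0.52. Over all 19938 genes measured 47.3% were above 0. The detectable members were partly chosen by their higher array, so the count over measured members is the one to read.

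Cell cycle genes stood a little higher, with members in both directions. Over detectable members the medians were 0.23 for mitosis and 0.17 for DNA replication genes. Heat shock (0.23), spliceosome (0.17) and proteasome genes (0.16) had medians of similar size. Where both neck values reached the median, the medians were 0.12 for mitosis and 0.17 for DNA replication genes. With the pseudocount of 32 they were 0.15 and 0.12. Medians of this size lie not far from the 0.09 of the brightest of the 4 level groups. Over all measured genes 47.3% were above 0. Mitosis genes had 17 of 24 measured members above 0 and a median of 0.20, with 2 of 19 detectable members at least 2-fold higher and 0 lower, beside the same 1.89% and 2.40%. These were Ckap2, a spindle protein, at 29.7 and 86.3 (1.54), and Tpx2, a spindle assembly factor, at 30.5 and 61.1 (1.00). Both were detectable only through the MIST1-null array, and with the pseudocount of 32 they stood at 0.94 and 0.58, under 2-fold. The topoisomerase gene Top2a read 109.1 and 163.8 (0.59) and the kinase gene Cdk1 68.1 and 99.8 (0.55). Mki67, the common proliferation marker, read 62.4 and 63.6 (0.03), the kinase gene Plk1 379.2 and 386.8 (0.03), and Cdc20, an activator of the anaphase complex, 109.8 and 72.3 (-0.60). DNA replication genes had 19 of 28 measured members above 0 and a median of 0.18, with no 2-fold member. The detectable member furthest up was the helicase subunit Mcm7 (0.87), and the one furthest down the clamp loader subunit Rfc5 (-0.99). Rrm1, a subunit of ribonucleotide reductase, stood at 0.85 and the primase subunit Prim1 at -0.65.

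Stem cell and Wnt response genes had 11 of 14 measured members above 0, where 47.3% of all measured genes were. Their median was 0.14, and none was at 2-fold. Lgr5, a receptor of stem cells and of some zymogenic cells, read 32.8 in wild-type and 63.2 in MIST1-null neck cells (0.95), against 242.2 and 168.0 in the zymogenic arrays. Stmn1, a microtubule regulator of cycling progenitors, read 871.4 and 1129 (0.37) and Prom1, a surface protein of progenitors, 465.1 and 590.3 (0.34). Gastric transcription factors had a median of 0.10 over 27 measured members, from Onecut2 at -0.92 (154.6 and 81.8) to the epithelial factor Ehf at 0.47.

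Genes reported to be activated by MIST1 were near equal in the neck arrays. The ubiquitin ligase gene Mib1, which primes Notch ligands, read 72.8 and 81.5 (0.16), Ccpg1, an ER autophagy receptor, 213.4 and 227.2 (0.09), and the connexin gene Gjb1 56.6 and 51.6 (-0.13). Rab26, Rab3d and Atp2c2 were under the detectable level in both neck arrays, so nothing can be read from their differences. In the zymogenic pair 4 members were detectable, 0 were above 0 and the median was -0.64.

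The secretory apparatus, from the ER to the granule, held few 2-fold members. ER folding and unfolded protein response genes had a median of 0.20 over 28 detectable members, with 19 above 0, from Derl1 of ER degradation at -0.50 to the folding enzyme Pdia4 at 0.50. ER translocation genes had a median of 0.18 over 27, from Srp19 of the signal recognition particle at -0.59 to Rpn2 of the oligosaccharide transferase at 0.71. Golgi coat and vesicle traffic genes had a median of 0.03 over 34, and exocytosis genes 0.14 over 27, with the granule GTPase Rab27a furthest up at 0.81. None of these lists had a 2-fold member. Lysosome genes had a median of 0.13 over 27, none at 2-fold, and autophagy genes -0.07 over 23, with Gabarapl2 as the only 2-fold member. Medians of this size lie not far from the 0.09 of the brightest of the 4 level groups.

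Markers of endocrine cells were lower in the MIST1-null neck array. Sst, encoding the hormone somatostatin, read 885.3 in wild-type and 250.8 in MIST1-null neck cells, against 2079 and 2686 in the zymogenic arrays. Chga read 217.0 and 76.4 and the related granin Chgb 224.9 and 98.0, differences of -1.51 and -1.20. Ghrl, the ghrelin gene, read 4371 and 3214 (-0.44), and Gast, the gastrin gene, 38.9 and 47.7 (0.29). Of 14 measured members 12 were below 0 and 2 above, with a median of -0.41, where 47.3% of all measured genes were above 0. Of the 6 detectable members 3 were 2-fold lower and 0 higher, beside 2.40% and 1.89% of all detectable genes. With the pseudocount of 32 Chgb stood at -0.98, just under 2-fold. The summed intensity of the list was 6084 in wild-type and 3964 in MIST1-null neck cells, and no member was at the floor of 1. In such captured samples fewer cells of a type and less RNA per cell cannot be told apart.

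Stromal, leukocyte and endothelial markers went the same way in the neck pair. Of 15 measured fibroblast and smooth muscle markers 13 were below 0, with a median of -0.49 and a summed intensity of 947.4 in wild-type and 660.0 in MIST1-null neck cells. Of 12 detectable ones 2 were 2-fold lower and 0 higher, beside 2.40% and 1.89% of all detectable genes. These were Cnn1, a calponin of smooth muscle, at 47.9 and 10.6 (-2.17), and the intermediate filament gene Vim, at 109.2 and 51.0 (-1.10). The matrix gene Dcn read 109.8 and 74.3 (-0.56) and the actin gene Acta2 60.7 and 33.1 (-0.88). Of 16 measured leukocyte markers 11 were below 0, with a median of -0.43 and sums of 700.3 and 471.2. Of 8 detectable ones 2 were 2-fold lower and 0 higher, Cd53 and H2-Aa, an MHC class II chain, at 57.9 and 23.3 (-1.32). Ptprc, the defining leukocyte marker, read 49.4 and 30.6 (-0.69). With the pseudocount of 32 Cnn1, Vim and H2-Aa were under 2-fold, at -0.91, -0.77 and -0.70. Of 12 measured endothelial markers 10 were below 0, with sums of 671.9 and 519.8 and a median of -0.22. Plvap, of capillary walls, read 185.8 and 99.6 (-0.90). Over the 5 detectable endothelial markers the median was -0.30, and -0.17 with the pseudocount of 32. The endothelial medians lie not far from the -0.12 of the dimmest of the 4 level groups. Most of these genes were close to the detectable level in both arrays, and the sums include values below it.

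**Figure D3:**
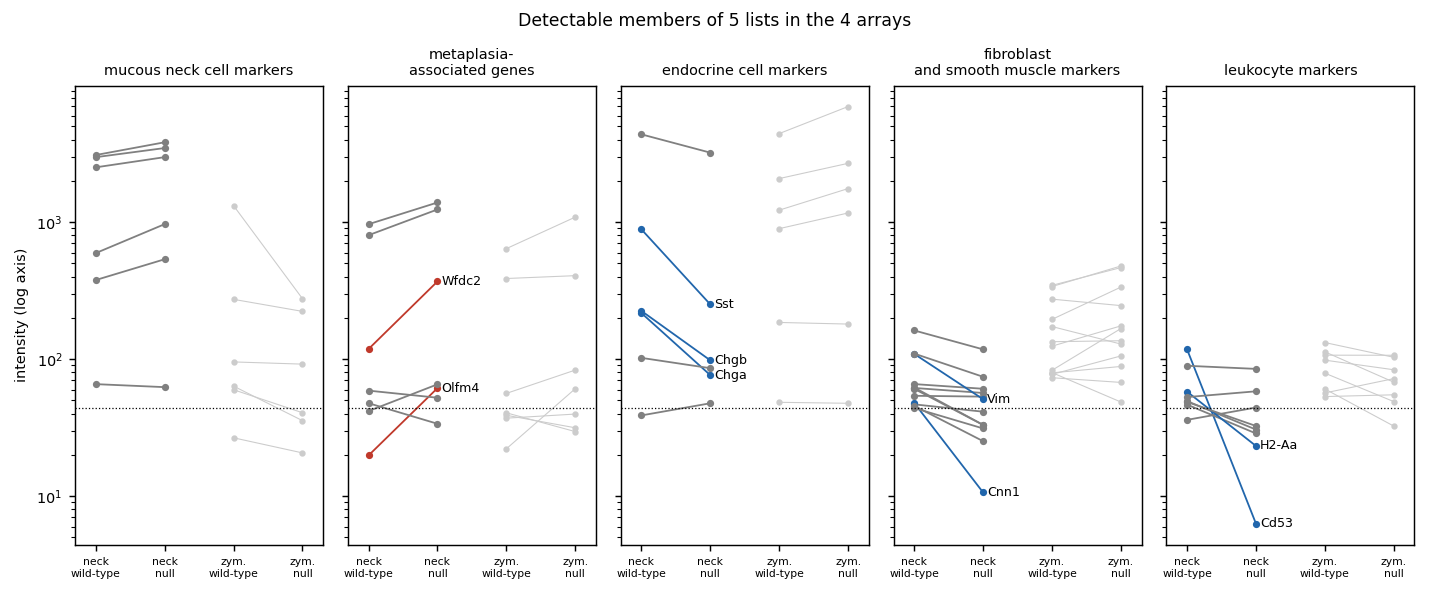
Intensity (log axis) of the members detectable in the neck pair for 5 lists, with 1 line per gene, joined within the neck pair (left of each panel) and within the zymogenic pair (right, pale). Red and blue lines are at least 2-fold higher and lower in MIST1-null neck cells, and the dotted line is the detectable level; endocrine, stromal and leukocyte markers mostly slope down in the neck pair while 5 of 6 mucous neck markers slope up.

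In the zymogenic pair endocrine markers had 8 of 12 detectable members above 0, fibroblast and smooth muscle markers 8 of 13 and endothelial markers 5 of 9, against 52.9% of all detectable genes of that pair. Leukocyte markers were mostly below 0 there too, with 4 of 13 above 0 and a median of -0.36. The part of these markers in the other differences of the neck pair was not tested. Other genes that are common in stroma or vessels were also lower, namely Fabp4, Igfbp7 (326.6 and 160.3) and Rbp7 (260.7 and 126.3), grouped after their values were seen. Red blood cell genes had 2 measured members, and the detectable one, Slc4a1, differed by 0.07. Squamous epithelium genes had 9 of 16 measured members below 0 and a median of -0.22. Apart from Lgals7 none passed 2-fold, with the keratin gene Krt14 at 62.9 and 35.97 (-0.81). Intestinal epithelium genes had 8 of 12 measured members below 0 and a median of -0.17, and the detectable member furthest up, the homeobox gene Cdx1, read 44.8 and 53.5. The squamous and intestinal medians lie not far from the -0.12 of the dimmest of the 4 level groups.

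Most interferon response genes were lower in MIST1-null neck cells, though the list did not keep its direction in every setting. The receptor chains of the list, grouped after their values were seen, namely Ifnar2 (1.86), Ifnar1 (33.4 and 58.6, 0.81), Ifngr1 (108.3 and 168.0, 0.63) and Ifngr2 (102.1 and 137.7, 0.43), were above 0. Of 29 measured genes 22 were below 0 and 7 above, with a median of -0.41. Over the 17 detectable ones the median was -0.23, and with detection set at the 75th percentile it was 0.43. Over the 7 with both neck values at or above the median it was -0.04. The GTPase gene Iigp1 read 65.7 and 19.2 (-1.78), the signal transducer Stat2 49.3 and 24.6, just past 2-fold lower, the RNA sensor Ifih1 105.6 and 55.1 (-0.94) and Ifi27 203.1 and 129.1 (-0.65). Iigp1 and Stat2 were detectable only through the wild-type array, and with the pseudocount of 32 they stood at -0.93 and -0.52, under 2-fold. Oasl1, an interferon response gene outside the list that was picked after its values were seen, was 2-fold higher at 25.6 and 61.9 (1.27). Oasl1 was detectable only through the MIST1-null array and stood at 0.71 with that pseudocount. Antigen processing genes had 8 of 11 measured members below 0, with a median of -0.28. Mr1, which presents microbial metabolites, read 91.6 and 19.8 (-2.21), the proteasome subunits Psmb9 105.4 and 62.2 (-0.76) and Psmb10 124.5 and 89.3 (-0.48), and the peptidase gene Erap1 68.9 and 101.3 (0.56). B2m, shared by MHC class I molecules, was near equal at 2017 and 1894. Mr1 was detectable only through the wild-type array, and with the pseudocount of 32 it stood at -1.26.

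Signalling pathways were mixed. Notch genes had 16 of 32 measured members above 0, from the ligand Dll4 at 86.6 and 43.5, just under 2-fold lower, to Ncstn of gamma-secretase at 47.9 and 81.7 (0.77). EGF receptor family genes ran from Erbb2 (-0.59) to the ligand Btc (0.35). BMP signalling genes had a median of 0.12 over 20 detectable members, with the receptor Bmpr2 furthest up at 123.7 and 227.1 (0.88). The only 2-fold members there, 2 of 20 and both lower, were secreted BMP antagonists, beside 2.40% lower among all detectable genes. They were Sostdc1 at 135.0 and 41.5 (-1.70) and Nog at 67.5 and 32.9 (-1.04). Both were detectable only through the wild-type array, and with the pseudocount of 32 Nog stood at -0.62. Tight junction and adhesion genes had a median of -0.09 and no 2-fold member, from Cldn3 (-0.71) to Cldn12 (0.54). Cilium genes had 2 of 20 detectable members at least 2-fold higher and 0 lower, beside 1.89% and 2.40% of all detectable genes. These were Ttc8, detectable only through the MIST1-null array, and the transport subunit Ift52 (59.0 and 121.4, 1.04). With the pseudocount of 32 Ift52 stood at 0.75, under 2-fold. Of 29 measured cilium genes 15 were above 0. Genes of p53 and apoptosis ran from Pmaip1 at -0.70 to Trp53inp1 at 0.45.

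Housekeeping and metabolic lists mostly sat near 0. For cytosolic ribosomal proteins the median was 0.01 over 54 genes, from Rps19 at -0.54 to Rpl12 at 0.80. Proteasome genes had a median of 0.16 over 31, with Psmb2 furthest up at 176.4 and 333.0 (0.92), and spliceosome genes 0.17 over 33, with Snrpc furthest down at -0.85. Heat shock genes had a median of 0.23 over 10 detectable members and immediate early genes -0.16 over 12, the latter from Jund (-0.99) to Ier3 (0.99). The lists of ATF4 targets (-0.01), glycolysis (-0.01), cholesterol synthesis (0.02), fatty acid synthesis (0.00) and glutathione and xenobiotic enzymes (0.11) had small medians too. Their 2-fold members were Aldoc, a glycolytic aldolase, at 93.0 and 30.1 (-1.63), Stard4, a sterol carrier, at 85.1 and 42.4, and Gpx4, which repairs oxidised lipids, at 346.8 and 163.8 (-1.08). With the pseudocount of 32 Stard4 and Gpx4 were under 2-fold, at -0.65 and -0.95. Gpx4 has 2 probe sets, and the other one was not compared. Sqle, an enzyme of cholesterol synthesis, stood at 132.6 and 240.1 (0.86). In the whole collection of lists, 748 genes were detectable, of which 8 were 2-fold higher (1.07%) and 18 lower (2.41%), beside 1.89% and 2.40% of all detectable genes.

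**Figure D4:**
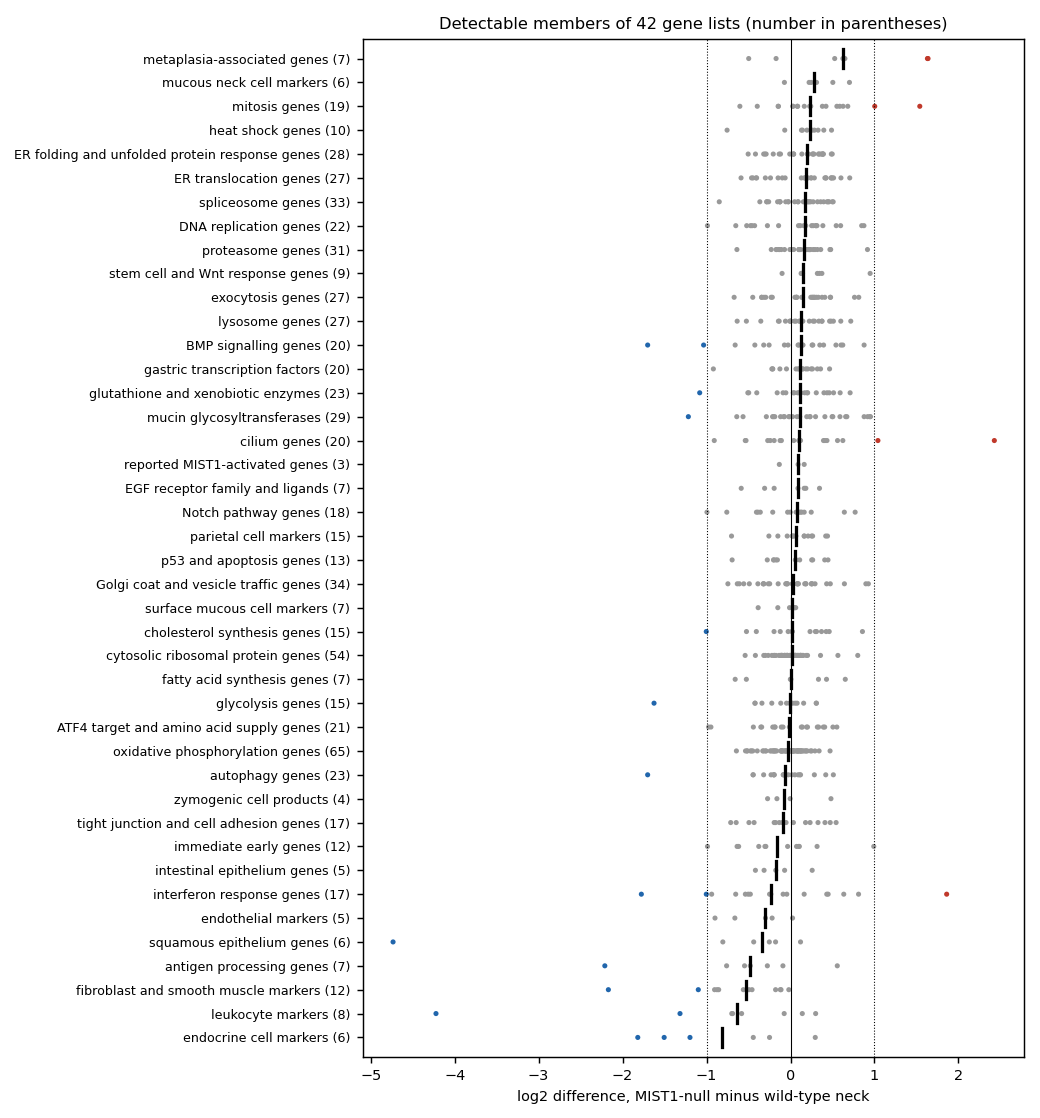
Log2 difference (MIST1-null minus wild-type neck) of each detectable member of 42 gene lists, ordered by their median (black bar), with red and blue points at 2-fold or more. Medians of detectable members run from -0.82 (endocrine) to 0.62 (metaplasia-associated); over all measured members endocrine markers have -0.41, fibroblast and smooth muscle markers -0.49, and metaplasia-associated genes 0.52.

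Genes of the sex chromosomes were read since the labels give no sex for the pooled mice. The Y-linked Eif2s3y read 223.1 in wild-type and 450.3 in MIST1-null neck cells (1.01) and 398.2 and 425.1 in the zymogenic arrays, Kdm5d 112.5 and 143.8 (0.35) and Uty 91.4 and 129.4 (0.50). Xist, the X-inactivation RNA, was under the detectable level in all 4 arrays. These 3 Y-linked genes of the list were lower in the wild-type neck array than in the MIST1-null neck array. Srsy, a Y-linked multicopy gene outside the list that was picked after its values were seen, went the other way, at 61.3 and 19.9 (-1.63) in neck and 67.5 and 21.3 in zymogenic cells. The part of the pools' make-up in other differences was not tested.

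MIST1 binds E-box motifs as a dimer, so the promoters of the 2-fold genes were searched for CATATG and CAGCTG, motifs that read the same on both strands. Promoter windows of 300 bases, 250 before and 50 after the start site, came from RefSeq (GRCm38.p6) and matched 204 of the 263 lower and 166 of the 207 higher genes. CATATG lay in 7 of 255 windows of lower genes (2.75%) and 1 of 199 windows of higher genes (0.503%), against 2.06% for windows of detectable genes and 3.91% for all windows. CAGCTG lay in 15.3% and 13.1% of them, against 15.2% and 16.3%. These shares rest on a handful of windows for CATATG and are descriptions, and a match is not a binding site.

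To show what such matches look like, stretches around CATATG (in capitals) are printed 5′ to 3′ along the gene for 3 lower genes and the single higher one. They are Fzd1 (146.7 in wild-type and 51.4 in MIST1-null neck cells), chr5:4758317-4758352 on the minus strand, Harbi1 (-1.32), chr2:91710683-91710718 on the plus strand, Dnajb7 (-1.20), chr15:81408318-81408353 on the minus strand, and the higher gene Gpr183 (1.13), chr14:121965206-121965241 on the minus strand. All but Fzd1 were picked for the motif.
Fzd1: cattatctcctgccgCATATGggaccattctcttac
Harbi1: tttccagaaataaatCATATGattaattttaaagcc
Dnajb7: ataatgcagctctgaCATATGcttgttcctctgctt
Gpr183: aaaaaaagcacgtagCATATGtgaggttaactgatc

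Among named genes CAGCTG (in capitals) lay before the start site in both directions, with 2 copies at Chga. Those of the lower genes Chga (chr12:102554747-102554782 and chr12:102554810-102554845, plus strand) and Ifitm3 (chr7:141010936-141010971, minus strand) and of the higher genes N4bp2 (chr5:65763484-65763519, plus strand) and Fam185a (chr5:21424674-21424709, plus strand) are given to set both directions side by side.
Chga, far copy: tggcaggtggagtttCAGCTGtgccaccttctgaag
Chga, near copy: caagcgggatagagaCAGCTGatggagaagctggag
Ifitm3: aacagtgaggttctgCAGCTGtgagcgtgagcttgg
N4bp2: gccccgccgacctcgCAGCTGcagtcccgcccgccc
Fam185a: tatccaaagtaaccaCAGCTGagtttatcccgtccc

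Set beside the zymogenic pair, which shares no array with the neck pair, a minority of the neck differences recurred. Of 207 genes higher in MIST1-null neck cells, 27 were also 2-fold higher in MIST1-null zymogenic cells, which is 13.0% of the neck list and 4.43% of the 609 zymogenic genes. Of the 263 lower genes, 37 were lower in both, or 14.1% of the neck list and 5.98% of the 619 zymogenic genes. Where both values of a pair had to reach the median, the shares of the neck lists were 10.3% and 6.25%, and 2.94% and 2.49% of all such genes were higher and lower in the zymogenic pair. In the zymogenic pair 10.4% of detectable genes passed 2-fold, 5.15% higher and 5.23% lower. Opposite 2-fold differences were found for 11 of the higher (5.31%) and 15 of the lower neck genes (5.7%). Apart from those already given, genes lower in both included Acp1, a phosphatase (1304 and 621.1 in neck, 1404 and 526.6 in zymogenic cells), Cdo1, of cysteine breakdown (120.4 and 47.1, 656.3 and 187.4), and the growth factor gene Gdf9 (100.5 and 29.1, 1234 and 239.8). Genes higher in both included E2f4, a cell cycle regulator (41.3 and 108.0, 26.9 and 63.7), and Taf1a (65.0 and 132.5, 35.9 and 156.0). These 5 were picked after their values were seen.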

How the data were processed

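The deposited values are linear probe set intensities of 35512 probe sets, which the authors made from Affymetrix Mouse Gene ST arrays with dChip, per the labels and the text on the series design. The sources used here do not describe background correction, summary or scaling. Probe sets with exactly 1 gene in the platform annotation (21789) were used, those with several (1621) or not listed (12102) were not. Identifiers of 21698 matched RefSeq (GRCm38.p6), which changed 0 symbols. A gene took its probe set with the highest mean over 4 arrays. Other probe sets were compared one by one only for the genes named as furthest each way, brightest or targeted. For further genes with several, such as Gpx4 (2) and Acp1 (5), they were not. Values were log2 with a floor of 1, and 0 of the values used lay at or under it. The counting was tested on simulated data with planted changes well past 2-fold in bright genes and with far less noise than the neck pair shows. That test checks the counting itself and cannot speak for dim genes or differences near 2-fold.

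Named genes were the 15 furthest each way with both neck values at or above the median, the 8 furthest each way by log2(value + 32) among other detectable genes, the 12 brightest, Bhlha15, its 3 nearest detectable neighbours on each side, and extremes and 2-fold members of 44 lists, leaving out symbols of predicted genes, small RNAs and olfactory or vomeronasal receptors. Some further list members were chosen after their values were seen, to show the spread of a list, and genes outside the lists are marked in the text. Members and lists were chosen with earlier results of these data known. Alternatives were run with R 4.3.3, limma 3.58.1 and Python 3.11.15.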

Additional observations from a re-analysis of the deposited data

Results flagged for a closer look

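Of the named genes detectable in both pairs, 5 differed by 2-fold or more in opposite directions between the neck pair and the zymogenic pair. The difference between both cell types was not tested. Over all 2-fold neck genes, 5.31% of the higher and 5.7% of the lower differed 2-fold the opposite way. Among all detectable genes of the zymogenic pair 5.23% were 2-fold lower and 5.15% higher, so such shares are near the background. Lgals7, the galectin, was at -4.73 in neck and 2.65 in zymogenic cells, with 4.58 in MIST1-null neck as the lowest and 303.9 in MIST1-null zymogenic cells as the highest of its 4 values. St6gal1, the sialyltransferase, was at -1.22 and 2.5. N4bp2 was at 2.59 in neck and -1.46 in zymogenic cells, Ppifos at 2.05 and -1.61, and Trmt10b at 1.64 and -1.44. With 1 array per group, each of these rests on 4 values. Of the 5, only N4bp2 reached the detectable level in both neck arrays.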

How the results depend on the processing

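The counts of 207 higher and 263 lower genes depended on how dim values were treated. They were 28 and 54 with a pseudocount of 32, 75 and 98 with 16, 333 and 556 with no filter, 104 and 120 with the 75th percentile filter, and 68 and 64 where both values had to reach the median. Under quantile normalization, cyclic loess, median centring and the mean of probe sets each count stayed within 1.5 times the reported one. Bhlha15 differed by -0.81 with the pseudocount of 32, under 2-fold. The share of lower neck genes that were also lower in zymogenic cells was 6.25% where both values had to reach the median. The median of interferon response genes turned to 0.43 with the 75th percentile filter, and the cause was not tested. No named gene past 2-fold changed sign under any alternative run. A filter or a pseudocount leaves the sign of a probe set's difference as it is, so those runs could not have shown a change. With the pseudocount of 32, 18 named genes dropped below 2-fold. The 162 named genes compared include many that were under 2-fold to begin with and could not drop. Those picked by log2(value + 32) were chosen on this same scale. No paired analysis was possible because each group is 1 array.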
